A study of Homo sapiens with 6 samples.

Results

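The 43 genes described here act in homologous recombination, in the Fanconi anaemia pathway and in the DNA damage checkpoint. They were chosen by name from a fixed list of symbols, and each was found by matching its symbol to the Ensembl identifier of a row of the count table. They make up 43 of the 57905 genes counted. The cells were HCT116, a line from a human colorectal carcinoma with wild-type p53, and their RNA was sequenced in bulk. One group, Nut 0h, received the vehicle DMSO. The other groups, Nut 1h and Nut 10h, received 10 µM Nutlin-3a, a small molecule that keeps p53 from binding its inhibitor MDM2, for 1 h and for 10 h. Each of the 3 groups had 2 biological replicates, which gave 6 libraries of a single cell line. The comparisons ask how the transcript levels of these genes stood early and late after p53 was released, relative to vehicle.

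Homologous recombination mends broken DNA by copying an intact sister chromatid, and it works mainly in S and G2 phase of the cell cycle. The BRCA1-BARD1 ubiquitin ligase favours trimming of the broken ends, and BRCA2 with its partner PALB2 acts after it on the exposed strand. The Fanconi core complex attaches ubiquitin to the FANCD2-FANCI pair where crosslinked DNA blocks a replication fork, while the kinases ATM and ATR report damage to their effector kinases CHEK2 and CHEK1. Many of these genes are transcribed in a cell cycle dependent manner, under E2F factors and their repressor complexes.

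The counts assigned to genes summed to between 26068076 and 35473485 per library, and all 43 members passed the filter on low counts along with 16565 genes in all. The treatment was checked on well-known p53 targets. The cell cycle inhibitor gene CDKN1A stood at 10629 and 9286 normalized counts with vehicle, at 9837 and 10726 after 1 h and at 145531 and 139682 after 10 h. MDM2 stood at 1688 and 2083, at 8694 and 8500, and at 22633 and 27946 in the same order. The epithelial markers EPCAM, CDH1, KRT8 and KRT18 were abundant in every library, whereas VIL1 (9.66 and 0.939 normalized counts at Nut 0h) and CDX1 (0 at Nut 0h), which mark differentiated intestinal epithelium, were near 0. The immune cell markers PTPRC and CD3E were near 0 as well, and the endothelial marker PECAM1 was not matched by symbol. The fibroblast marker COL1A1 was present at 782 to 1394 normalized counts. Normalized counts are counts scaled to a common library size. In the GENCODE annotation lifted to GRCh37, 32 of the 43 members share exon bases with another gene, 11 of them on the same strand. The counts need not have been made with that annotation, and the lengths of the overlaps were not measured. Whether the counting used the strand is not given in the sources used here, so how reads in the shared bases were assigned is not known.

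Before treatment the members covered a wide range of levels. On the TPM scale, which divides by transcript length and by the total of the library, the ubiquitin-conjugating enzyme UBE2T of the Fanconi pathway had the highest level at Nut 0h, 128 ± 5.10 (SD, n = 2). It was followed by the core complex subunit FANCG at 66.9 ± 0.839, the strand exchange factor XRCC3 at 59.0 ± 0.803 and the end-trimming factor RBBP8 (also called CtIP) at 51.0 ± 2.37 TPM. RBBP8 and the next gene, FANCA at 49.7 ± 3.61, did not differ beyond their spread. The lower end of the order held BRCA2 at 2.75 ± 0.438, FANCB at 2.74 ± 0.114, MRE11A at 2.29 ± 0.264, FANCF at 1.72 ± 0.0699 and RAD51D at 1.39 ± 0.104 TPM, and the range of BRCA2 within its SD overlapped those of FANCB and MRE11A. The kinase genes ATM (3.17 ± 0.850) and ATR (7.80 ± 1.70) lay in the lower part of the order, and CHEK2 (33.5 ± 0.552) and CHEK1 (24.4 ± 1.58) in the upper part. RAD51D was divided by a canonical transcript of 9966 bases, so its level per length is low for a gene with few counts.

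After 10 h of Nutlin-3a most of these genes were expressed below their vehicle level. Of the 43 members 31 fell and 2 rose at an adjusted p of at most 0.05 (edgeR quasi-likelihood test), and 10 did not pass the test. Among all 16565 genes tested, 14.9% were called lower and 14.1% higher in the same comparison, against 72.1% and 4.65% of the members. The median log2 fold change of the members was -0.81, with a range from -1.93 to 1.57, while the median of all tested genes was 0.00017. Without Nut 0h replicate 1, Nut 1h replicate 1 or Nut 1h replicate 2, the count of members that rose was 1, and without Nut 0h replicate 2 it was 3. A decrease of at least 2-fold was reached by 20 members, and the share of all tested genes with such a decrease is not given here. The counts of all members summed to 53087 and 55606 normalized counts in the Nut 0h libraries and to 33089 and 34535 in the Nut 10h libraries. In such bulk samples a lower level in every cell and a smaller share of cells that express a gene cannot be told apart. The p-values rest on the spread between the 2 libraries of each group, estimated over all 3 groups together and moderated across genes. They measure no other source of variation.

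**Figure D1:**
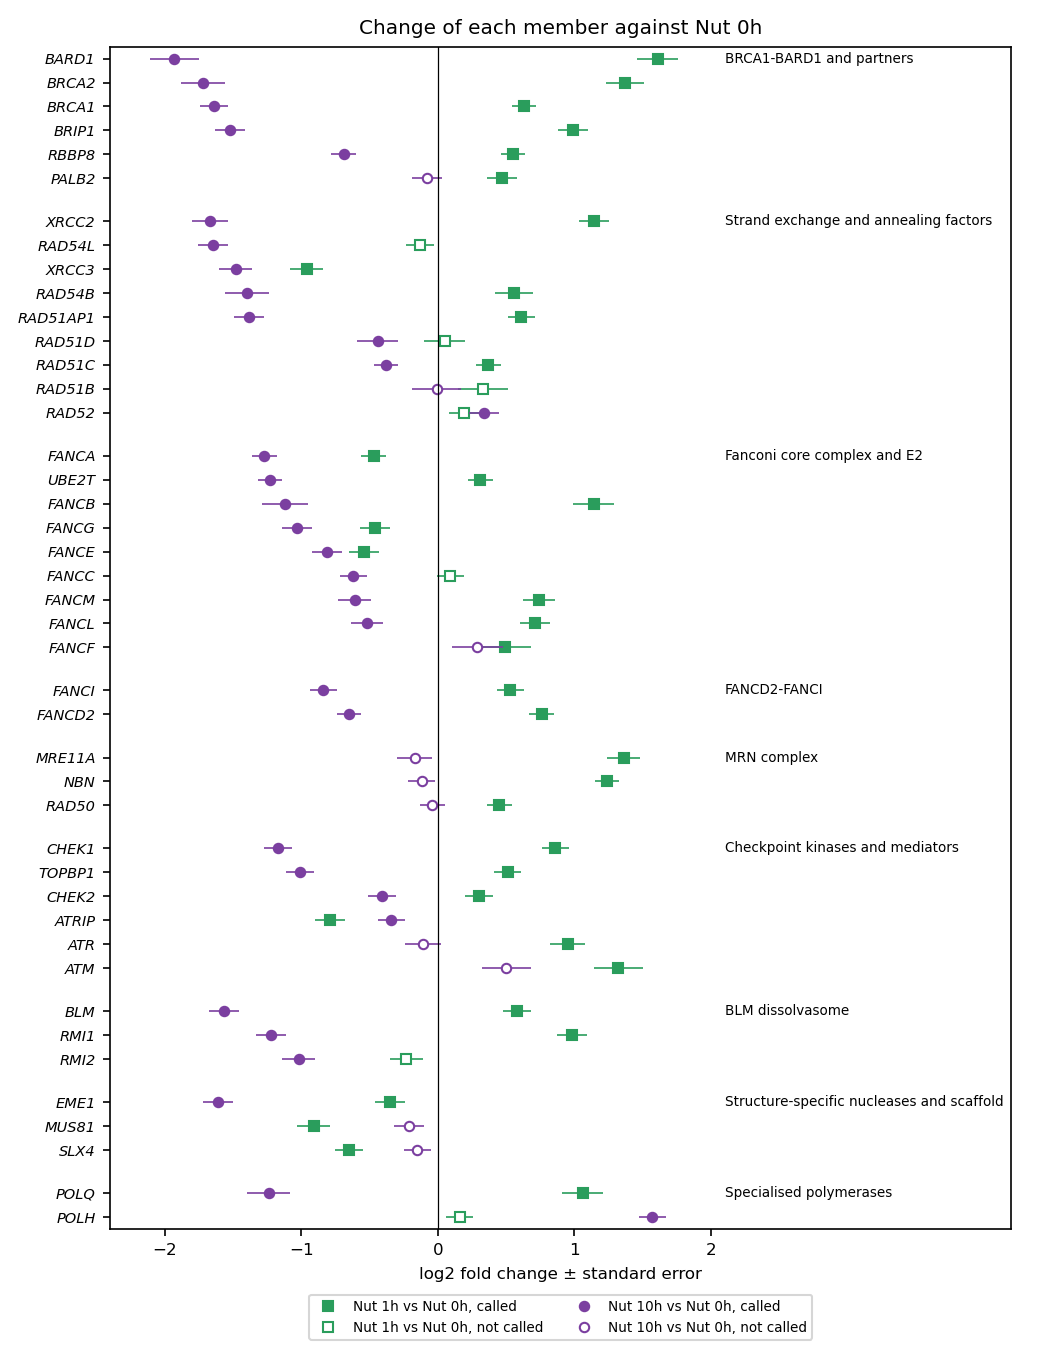
Log2 fold change of each of the 43 members at Nut 1h (green squares) and Nut 10h (purple circles) against Nut 0h, grouped by role, with bars for the standard error and open symbols for genes that did not pass the test. At Nut 10h 31 of the 43 circles are called lower and lie left of 0, and POLH stands alone at 1.57 to the right.

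In the BRCA1-BARD1 group 5 of 6 members fell at Nut 10h, and its median log2 fold change of -1.58 was the lowest of the role groups. BRCA1 (ENSG00000012048, GRCh37 chromosome 17, 41196312 to 41322262, minus strand) stood at 1913 and 2031 normalized counts at Nut 0h and at 613 and 656 at Nut 10h, a 3.11-fold decrease (log2 fold change -1.64 ± 0.10 SE, adjusted p = 2.27e-08). Its ring finger partner BARD1 (ENSG00000138376, chromosome 2, 215590370 to 215674407, minus strand) fell from 485 and 539 to 97.6 and 169, which was 3.82-fold (-1.93 ± 0.18, adjusted p = 1.69e-06) and the largest decrease of any member. BRCA2 (ENSG00000139618, chromosome 13, 32889223 to 32974405, plus strand) dropped from 499 and 597 to 141 and 190 normalized counts (-1.72 ± 0.16, adjusted p = 1.78e-06). In all of these genes both Nut 10h libraries lay below both vehicle libraries. Such separation is common with 2 libraries per group. At Nut 10h 34 of the 43 members lay wholly below vehicle and 4 wholly above, against 30.4% and 31.0% of all tested genes. The helicase gene BRIP1, whose protein binds BRCA1, went from 821 and 924 to 282 and 326 normalized counts (-1.52 ± 0.11, adjusted p = 1.98e-07). RBBP8 decreased less, by 1.62-fold (-0.69 ± 0.09, adjusted p = 7.70e-05). PALB2, the bridge between BRCA1 and BRCA2, was the exception, with 724 and 694 normalized counts at Nut 0h against 616 and 727 at Nut 10h, overlapping values that gave a log2 fold change of -0.08 ± 0.11 (adjusted p = 0.638).

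**Figure D2:**
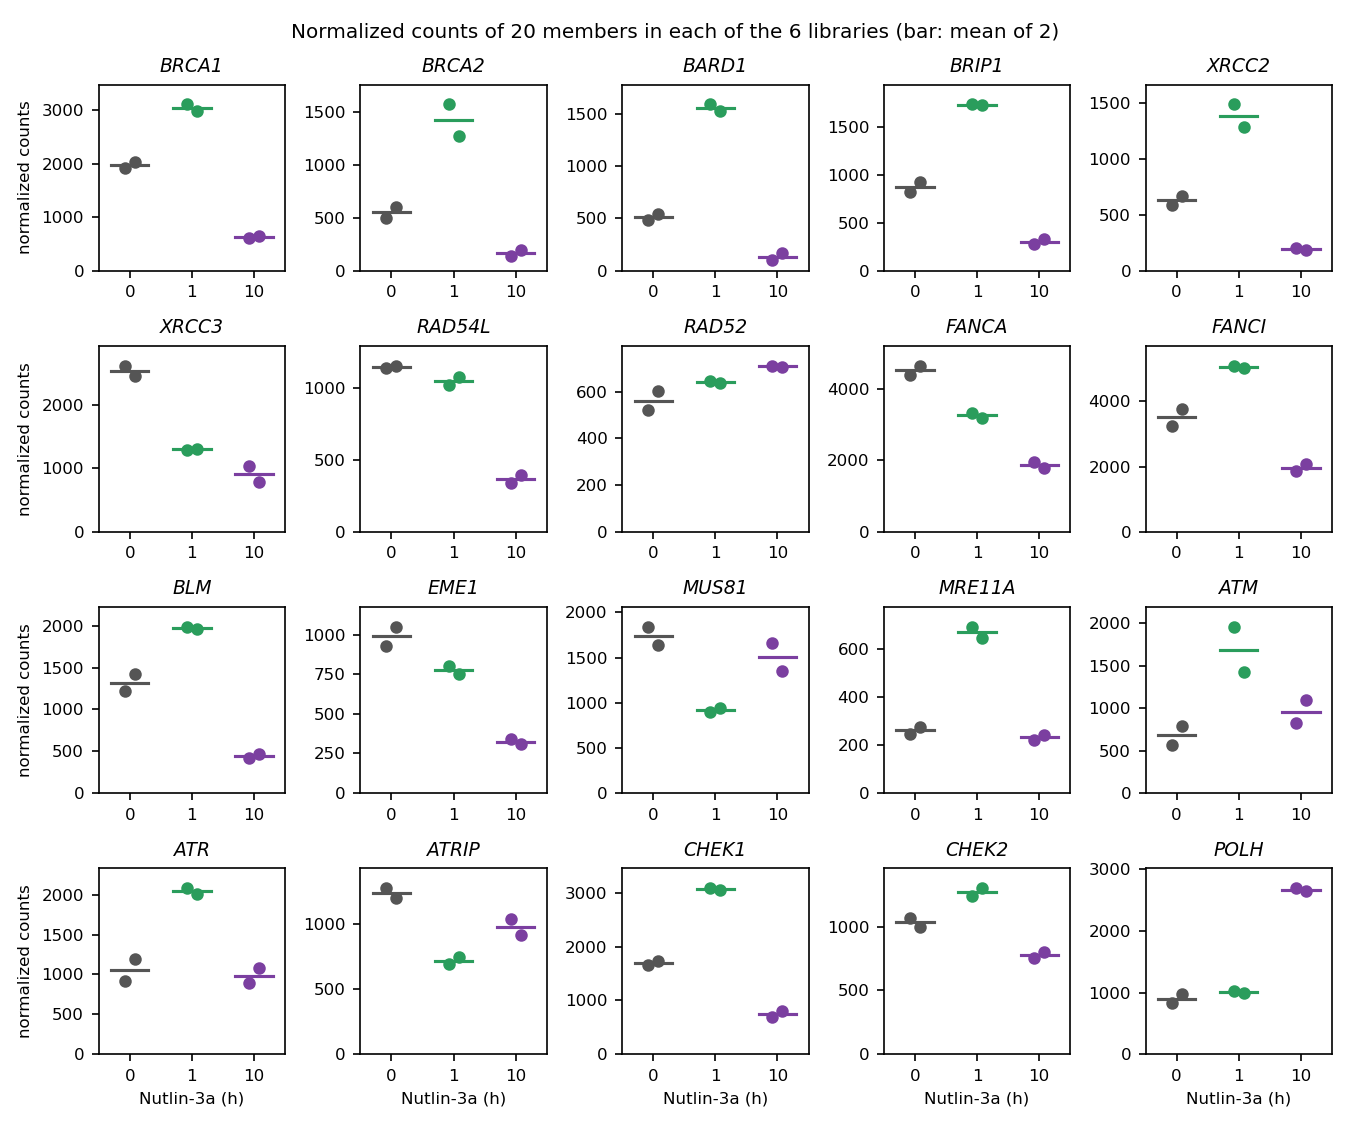
Normalized counts (vertical axes, starting at 0) of 20 members in the 6 libraries at 0, 1 and 10 h of Nutlin-3a, with 1 point per library and a bar at the mean of the 2 libraries. BRCA1, BRCA2, BARD1, BRIP1 and XRCC2 are highest at Nut 1h and lowest at Nut 10h, XRCC3 and FANCA step down at each time, and POLH is high at Nut 10h only.

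Among the strand exchange and annealing factors 7 of 9 members fell at Nut 10h and 1 rose, with a median log2 fold change of -1.38. XRCC2, a strand exchange factor, stood at 586 and 670 normalized counts at Nut 0h and at 206 and 188 at Nut 10h, a 3.19-fold decrease (-1.67 ± 0.13, adjusted p = 2.35e-07). RAD54L, a DNA translocase that helps strands pair, stood at 1140 and 1154 against 337 and 395 (-1.65 ± 0.11, adjusted p = 6.65e-08). XRCC3 went from 2616 and 2451 to 1035 and 782 normalized counts (-1.48 ± 0.12, adjusted p = 4.78e-07). None of these groups of libraries overlapped. RAD54B and RAD51AP1, which also assist strand exchange, fell by 1.40 and 1.38 on the log2 scale. RAD51C and RAD51D fell by only 0.38 and 0.44, and the call of RAD51D (adjusted p = 0.0418) was lost in several alternatives, among them with DESeq2 (-0.46, adjusted p = 0.130), in a fit of only the 2 groups (-0.44, adjusted p = 0.0653), without Nut 0h replicate 1 (log2 fold change -0.33, adjusted p = 0.209), without Nut 10h replicate 1 (-0.31, adjusted p = 0.190) and without either Nut 1h library (-0.44 and -0.45). For RAD51B the difference was -0.01 ± 0.18 (adjusted p = 0.965).

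RAD52, which anneals complementary strands, moved the other way. It stood at 521 and 602 normalized counts at Nut 0h and at 712 and 705 at Nut 10h, a 1.26-fold increase (0.34 ± 0.11, adjusted p = 0.0305), and the groups did not overlap. The call was lost in several alternatives. Without Nut 0h replicate 1 the log2 fold change was 0.23 (adjusted p = 0.267), and the call was also lost with DESeq2 (0.32, adjusted p = 0.0986), with no low-count filter (0.29, adjusted p = 0.093), in a fit of only the 2 groups (0.34, adjusted p = 0.0632), without Nut 1h replicate 1 (0.33, adjusted p = 0.0716), without Nut 1h replicate 2 (0.33, adjusted p = 0.0732) and without Nut 10h replicate 1 (0.33, adjusted p = 0.0515).

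Since so many members fell together, their promoters were read for short motifs. RefSeq promoters of 300 bases (250 before to 50 after the start, GRCh38.p14, a newer build than the gene coordinates given here) were found for 39 of the 43 members, 52 promoters in all, and not for RAD54B, FANCI, NBN and RMI2. The E2F motif GGCGGGAA, searched on both strands, occurred in 13 of the 52 member promoters (25.0%) and in 3.16% of all 35116 promoters of this length. Of the 28 members with a promoter entry that fell at Nut 10h, 11 (39.3%) held it, and none of the 9 that did not pass the test. RAD52, which rose, held it as well. The other members with a promoter entry that fell held no match, among them BARD1, BRCA2, BRCA1 and EME1, which had some of the largest falls. The following stretches are the 100 bases before the start of the members that fell and hold the whole motif within that stretch. They are shown as examples of the match, and its part in the fall was not tested. They are printed 5′ to 3′ along the gene's strand, with the motif or its reverse complement TTCCCGCC in capitals. POLH, the member with the largest rise, is shown beside them and holds no match.
RAD54L: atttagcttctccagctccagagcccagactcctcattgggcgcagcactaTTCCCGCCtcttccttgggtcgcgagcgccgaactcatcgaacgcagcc
FANCL: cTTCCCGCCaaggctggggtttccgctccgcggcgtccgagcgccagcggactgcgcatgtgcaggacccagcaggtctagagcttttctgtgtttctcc
RMI1: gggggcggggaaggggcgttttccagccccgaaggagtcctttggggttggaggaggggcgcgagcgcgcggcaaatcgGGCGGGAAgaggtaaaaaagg
RAD51AP1: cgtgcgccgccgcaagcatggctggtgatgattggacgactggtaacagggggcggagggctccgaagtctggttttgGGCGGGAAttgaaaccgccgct
BLM: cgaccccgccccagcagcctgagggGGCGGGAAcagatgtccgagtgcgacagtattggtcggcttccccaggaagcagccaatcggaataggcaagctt
POLH: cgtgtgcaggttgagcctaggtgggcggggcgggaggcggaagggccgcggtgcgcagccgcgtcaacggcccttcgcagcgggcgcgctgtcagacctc

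These stretches lie at chr1:46247588-46247687 (plus strand) for RAD54L, chr2:58241326-58241425 (minus strand) for FANCL, chr9:83980705-83980804 (plus strand) for RMI1, chr12:4538790-4538889 (plus strand) for RAD51AP1, chr15:90717246-90717345 (plus strand) for BLM and chr6:43576085-43576184 (plus strand) for POLH. The match began 21 bases before the start in RMI1, 22 in RAD51AP1, 49 in RAD54L, 75 in BLM and 99 in FANCL, and BLM held another match just after the start. The other motifs were less unevenly spread. The CCAAT box, bound by the factor NF-Y, occurred in 44.2% of member promoters and 34.6% of all promoters, and the other E2F motif TTTNGCGC in 5.77% and 1.79%. The CHR motif TTTGAA, known from promoters of late cell cycle genes, was found in 9.62% and 15.2%, TTTAAA in 7.69% and 12.2%, and the p53 half-site in 1.92% (BLM only) and 6.63%. No motif of this set contains another, and a match of letters was not tested for binding.

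In the Fanconi core complex, with its ubiquitin-conjugating enzyme, 8 of 9 members fell at Nut 10h, to a median log2 fold change of -0.81. FANCA stood at 4390 and 4647 normalized counts at Nut 0h and at 1941 and 1794 at Nut 10h, a 2.42-fold decrease (-1.27 ± 0.09, adjusted p = 1.51e-07), with no overlap between the groups. UBE2T (2.35-fold), FANCB (2.17-fold) and FANCG (2.05-fold) also dropped by more than 2-fold. The decreases of FANCE, FANCC, FANCM and the ubiquitin ligase FANCL lay between 0.81 and 0.52 on the log2 scale. FANCF had 93.7 and 94.8 normalized counts at Nut 0h against 99.6 and 130 at Nut 10h (0.29 ± 0.19, adjusted p = 0.297).

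The substrates of that complex fell as well. FANCI stood at 3259 and 3780 normalized counts at Nut 0h and at 1856 and 2077 at Nut 10h, so that the groups did not overlap (1.79-fold lower, log2 fold change -0.84 ± 0.10, adjusted p = 2.56e-05). FANCD2 went from 1833 and 2034 to 1220 and 1247 normalized counts (-0.65 ± 0.09, adjusted p = 1.41e-04).

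The MRN complex, which senses broken ends and recruits ATM, stood apart from this pattern in that 0 of its 3 members passed the edgeR test at Nut 10h, 0 at an unadjusted p under 0.05 and 0 with DESeq2. MRE11A, its nuclease, had 246 and 277 normalized counts at Nut 0h against 223 and 243 at Nut 10h (-0.17 ± 0.13, adjusted p = 0.356). The values of NBN were 1547 ± 67.7 and 1423 ± 105 (-0.12 ± 0.10), and those of RAD50 were 2395 ± 26.3 and 2326 ± 195 (-0.04 ± 0.09). In MRE11A and NBN both Nut 10h libraries lay below both vehicle libraries by a small margin (243 against 246, and 1497 against 1499 normalized counts, for the nearest libraries), and in RAD50 the groups overlapped. Whether the MRN genes differ from the other members was not tested.

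Of the 6 checkpoint kinases and mediators 4 fell at Nut 10h, and the median log2 fold change was -0.37. CHEK1 (ENSG00000149554, chromosome 11, 125495058 to 125546150, plus strand), the effector kinase of ATR, stood at 1647 and 1723 normalized counts at Nut 0h and at 688 and 806 at Nut 10h, a 2.25-fold decrease (-1.17 ± 0.10, adjusted p = 9.16e-07). TOPBP1, which activates ATR, fell 2.02-fold (-1.01 ± 0.10, adjusted p = 4.26e-06). CHEK2, the effector of ATM, changed less, from 1070 and 998 to 758 and 803 (-0.41 ± 0.10, adjusted p = 0.00702), and without Nut 0h replicate 1 it did not pass (-0.36, adjusted p = 0.0621). CHEK1 shares exon bases with STT3A on its own strand, so part of its counts may belong to that gene.

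The apical kinases were not called lower at Nut 10h. ATR had 920 and 1199 normalized counts at Nut 0h against 888 and 1079 at Nut 10h, overlapping values (-0.11 ± 0.13, adjusted p = 0.579). ATM had 566 and 794 at Nut 0h against 826 and 1093 at Nut 10h, higher in both libraries but outside the threshold (0.50 ± 0.18, adjusted p = 0.0520). Without Nut 0h replicate 2 the ATM difference was 0.76 (adjusted p = 0.00129), and without Nut 10h replicate 1 it was 0.69 (adjusted p = 0.000134). Without Nut 0h replicate 1 it was 0.27 (adjusted p = 0.297) and without Nut 10h replicate 2 it was 0.29 (adjusted p = 0.170). With all libraries ATM passed as higher with DESeq2 (0.48, adjusted p = 0.0416), with the replicate number as a block (0.50, adjusted p = 0.0363), with an offset for GC content (0.47, adjusted p = 0.00863), with no low-count filter (0.45, adjusted p = 0.0013) and in a fit of only the 2 groups (0.50, adjusted p = 0.0473).

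ATRIP (ENSG00000164053, chromosome 3, 48488114 to 48509044, plus strand) encodes the obligate partner of ATR. The study lists it among distal p53 targets, for contact of its promoter with a p53-bound enhancer gained within 1 h. That listing does not rest on RNA levels. ATRIP stood at 1280 and 1202 normalized counts at Nut 0h and at 1041 and 918 at Nut 10h, a 1.27-fold decrease (-0.34 ± 0.10, adjusted p = 0.0230). The call was lost without Nut 0h replicate 1 (-0.30, adjusted p = 0.134), without Nut 10h replicate 2 (-0.24, adjusted p = 0.176) and without either Nut 1h library (-0.34 in each case, adjusted p = 0.0570 and 0.0572). ATRIP shares exon bases on the same strand with the exonuclease gene TREX1.

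All 3 genes of the BLM dissolvasome, which untangles joined DNA molecules without crossing over, fell at Nut 10h. The helicase gene BLM stood at 1219 and 1419 normalized counts at Nut 0h and at 419 and 471 at Nut 10h, with no overlap (2.97-fold lower, -1.57 ± 0.11, adjusted p = 1.18e-07). RMI1 and RMI2, its small partner subunits, fell 2.32-fold and 2.02-fold. Among the structure-specific nucleases, which cut such joints instead, 1 of 3 fell. EME1, the non-catalytic partner of MUS81, stood at 927 and 1049 against 338 and 307 normalized counts (3.06-fold lower, -1.61 ± 0.11, adjusted p = 1.09e-07). MUS81 itself had 1841 and 1641 at Nut 0h against 1665 and 1348 at Nut 10h, overlapping values (-0.21 ± 0.11, adjusted p = 0.186), although without Nut 10h replicate 1 it passed as lower (-0.37, adjusted p = 0.0205). The scaffold gene SLX4 gave -0.15 ± 0.10 (adjusted p = 0.291).

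The specialised polymerases went in opposite directions. POLH (ENSG00000170734, chromosome 6, 43543922 to 43588260, plus strand) encodes polymerase eta, which copies past ultraviolet lesions and is lost in the variant form of xeroderma pigmentosum, and the study lists it as a gene with p53 at its promoter. It stood at 834 and 969 normalized counts with vehicle, at 1022 and 989 after 1 h and at 2700 and 2647 after 10 h. The Nut 10h libraries lay far above all others, a 2.97-fold increase over vehicle (1.57 ± 0.10, adjusted p = 4.85e-08). At Nut 1h the difference did not pass the test (0.16 ± 0.10, adjusted p = 0.188). POLQ, whose polymerase joins ends through short homologies, fell 2.37-fold by 10 h, from 706 ± 177 to 298 ± 41.6 normalized counts (-1.24 ± 0.16, adjusted p = 3.90e-05).

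After 1 h of Nutlin-3a the members showed the opposite picture, but one that followed the base composition of the transcripts. Of the 43 members 28 were called higher than vehicle and 8 lower, and 7 did not pass the test, with a median log2 fold change of 0.51 beside 0.045 over all genes tested. Calls were frequent in this comparison, since 34.5% of all tested genes were called higher and 32.3% lower. Members and other genes alike had lower log2 fold changes at Nut 1h the richer in GC their transcripts were, with r = -0.93 across the 43 members and r = -0.70 across 16137 tested genes with a GC value, which share the same 4 libraries and are not independent. Of the 28 members with less than 45% GC, 27 were called higher and 0 lower (0 also at an unadjusted edgeR p under 0.05 or with DESeq2), and of the 15 with 45% or more, 1 was called higher and 8 lower. All tested genes under 45% GC were called higher in 74.5% of cases and had a median of 0.66, near the 0.73 of the members. Above that boundary 49.1% of all tested genes were called lower, and the medians were -0.40 for all genes and -0.35 for the members.

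When each library's trend with GC content was taken out as an offset, 11 members were called higher and 4 lower at Nut 1h, against 22.2% higher and 22.5% lower among all genes, and the median of the members became 0.05. At Nut 10h no such trend was seen, with r = 0.09 across the members and -0.03 across all genes. The members fell there at both ends of the range, in 20 of 28 genes (71.4%) under 45% GC and in 11 of 15 (73.3%) above it. Among all genes 13.7% and 15.8% fell in these classes, also without the offset. With the offset 31 members were again called lower, and their median was -0.77 beside 0.0027 for all tested genes. The shares of all tested genes called with the offset are not given for Nut 10h. Whether GC content itself plays a part in the Nut 1h differences was not tested.

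**Figure D3:**
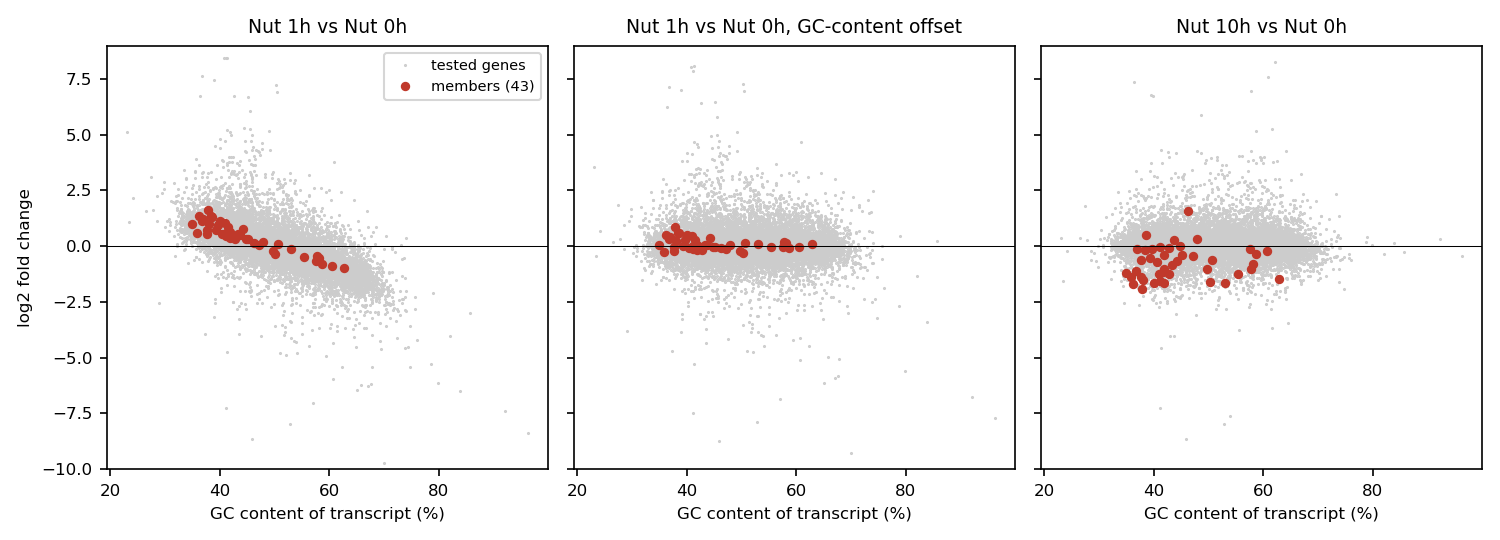
Log2 fold change (vertical axis) against the GC content of the transcript in percent for all tested genes (grey) and the 43 members (red), for Nut 1h without and with the GC-content offset and for Nut 10h. The members follow the downward trend of all genes at Nut 1h (r = -0.93), center near 0 with the offset (median 0.05) and lie mostly below 0 at any GC content at Nut 10h.

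Several members rose at Nut 1h in both forms of the test. BARD1 stood at 1594 and 1534 normalized counts, a 3.05-fold increase over vehicle (1.61 ± 0.15, adjusted p = 9.57e-07), and 0.84 remained of its log2 fold change with the offset. BRCA2 reached 1567 and 1271 normalized counts (1.37 ± 0.14, adjusted p = 1.68e-06) and 0.51 with the offset. MRE11A reached 695 and 648 (1.36 ± 0.12, adjusted p = 5.06e-07) and 0.61 with the offset. All of these libraries lay above both vehicle libraries, which held at Nut 1h for 32 of the 43 members and for 44.2% of all tested genes. XRCC2 at 1486 and 1282 (1.14, and 0.49 with the offset), ATM at 1961 and 1422 (1.32 and 0.58), ATR at 2086 and 2015 (0.95 and 0.28), CHEK1 at 3089 and 3044 (0.86 and 0.29) and BRIP1 at 1737 and 1734 (0.99 and 0.23) also kept their call. So did NBN (1.24 and 0.41), FANCD2 (0.76 and 0.36) and POLQ (1.06 and 0.46).

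For the others the offset ended or turned the call. BRCA1 stood at 3111 and 2985 normalized counts at Nut 1h, above both vehicle libraries (0.63 ± 0.09, adjusted p = 3.59e-05), and had a log2 fold change of 0.07 with the offset (adjusted p = 0.366). FANCI at 5102 and 5039 gave 0.53 and 0.07 with the offset, and BLM at 1990 and 1968 gave 0.58 and -0.00346. CHEK2 at 1243 and 1305 gave 0.30 and -0.04, and its call at Nut 1h was also lost with DESeq2 (0.25, adjusted p = 0.0955), with no low-count filter (0.26, adjusted p = 0.071) and without Nut 0h replicate 2 (0.24), Nut 1h replicate 1 (0.34) or Nut 1h replicate 2 (0.26). RAD51AP1, RAD51C and UBE2T were called higher without the offset (0.61, 0.37 and 0.31) and lower with it (-0.28, -0.18 and -0.19), and with the replicate block added to the offset RAD51C no longer passed as lower (adjusted p = 0.0501). The remaining members called higher at Nut 1h lost their call with the offset: FANCB (1.14, and 0.31 with the offset), RMI1 (0.98 and 0.05), FANCM (0.74 and -0.04), FANCL (0.71 and 0.02), RAD54B (0.56 and -0.23), RBBP8 (0.55 and -0.08), TOPBP1 (0.51 and -0.04), FANCF (0.49 and 0.06), PALB2 (0.47 and -0.02) and RAD50 (0.45 and -0.14). The call of RAD51C was lost without Nut 1h replicate 2 (0.32), that of UBE2T without Nut 0h replicate 1 (0.29), Nut 1h replicate 1 (0.32) or Nut 1h replicate 2 (0.29), and that of FANCF (0.49) with DESeq2 (0.44, adjusted p = 0.241), with DESeq2's size factors in edgeR (0.46, adjusted p = 0.0502) and without Nut 0h replicate 1 (0.47), Nut 0h replicate 2 (0.49) or Nut 1h replicate 1 (0.32).

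The 8 members called lower at Nut 1h were XRCC3, MUS81, ATRIP, SLX4, FANCE, FANCA, FANCG and EME1, all of them with at least 45% GC. XRCC3 stood at 1290 and 1308 normalized counts, 1.95-fold below vehicle (-0.96 ± 0.12, adjusted p = 8.11e-06), MUS81 at 902 and 945 (-0.91 ± 0.12, adjusted p = 9.87e-06) and ATRIP at 694 and 746 (-0.79 ± 0.11, adjusted p = 1.67e-05). With the offset these values were 0.10, -0.04 and -0.08, outside the threshold. Only EME1, at 802 and 751 normalized counts (-0.35 ± 0.11), remained called lower with the offset (-0.32), and its call without the offset was lost without Nut 0h replicate 2 (-0.27) or Nut 1h replicate 2 (-0.31). FANCA stood at 3333 and 3182 (-0.47, and -0.03 with the offset). SLX4 (-0.65 and -0.03), FANCE (-0.54 and 0.12) and FANCG (-0.46 and 0.17) behaved likewise. RAD54L at 1021 and 1072 and RAD52 at 645 and 636 did not pass the test at Nut 1h (-0.13 and 0.19), nor did RAD51B (0.33), POLH (0.16), FANCC (0.09) and RAD51D (0.05). RMI2 (-0.23, adjusted p = 0.0961) passed as lower when Nut 10h replicate 1 or Nut 10h replicate 2 was left out (-0.27 in each case).

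Set directly against Nut 1h, the Nut 10h libraries were lower for 35 members and higher for 4, where 33.7% of all tested genes were called lower and 34.2% higher. The median log2 fold change of the members was -1.24, beside -0.016 for all genes. This comparison uses the same libraries as the other comparisons and is not independent of them. The differences moved with GC content (r = 0.65 across the members). With the GC-content offset the median was -0.89, beside -0.0052 for all tested genes, and 33 members were called lower and 2 higher. The shares of all tested genes called with the offset are not given for this comparison.

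The other genes of these pathways were described from lists of 68 genes, of which 66 passed the filter. At Nut 10h 37 of them (56.1%) fell and 8 (12.1%) rose, against 14.9% and 14.1% of all tested genes, and their median log2 fold change was -0.50. At Nut 1h 41 (62.1%) were called higher and 14 (21.2%) lower, against 34.5% and 32.3% of all tested genes, and with the GC-content offset 23 (34.8%) and 15 (22.7%), against 22.2% and 22.5%. Among 32 tested further genes of homologous recombination 17 fell and 5 rose. The end-trimming nuclease EXO1 went from 1441 ± 68.5 (SD, n = 2) to 266 ± 30.4 normalized counts (-2.44 ± 0.11, adjusted p = 3.16e-09). At least 2-fold decreases were also seen for PSMC3IP (-2.12) and MND1 (-1.27), which stimulate strand pairing, and for FIGNL1 (-1.20), DNA2 (-1.06) and the joint-cutting nuclease GEN1 (-1.04).

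Of 17 further Fanconi genes 9 fell and 3 rose (median -0.59), and with the GC-content offset 9 fell and 6 rose. Those that fell by at least 1 on the log2 scale were USP1 (-1.45), which takes ubiquitin off FANCD2, the nuclease gene DCLRE1B (-1.31), the ubiquitin ligase gene RFWD3 (-1.03) and STRA13 (-1.02). Of 17 further checkpoint genes 11 fell and 0 rose (median -0.74), with 0 higher at an unadjusted edgeR p under 0.05 or with DESeq2. They included the phosphatase gene CDC25A, which CHEK1 acts on, from 1711 ± 2.27 to 321 ± 0.709 normalized counts (-2.41 ± 0.11, adjusted p = 2.31e-09), and CLSPN, the adaptor between ATR and CHEK1, from 1306 ± 114 to 278 ± 10.2 (-2.23 ± 0.11, adjusted p = 4.91e-09). WEE1 (-1.74), the histone gene H2AFX (-1.51), CDC25C (-1.50) and TIPIN (-1.18) followed.

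Genes of neighbouring processes were counted in the same way at Nut 10h. Of 37 DNA replication genes 33 fell and 0 rose, with a median of -1.33 and with 0 higher at an unadjusted edgeR p under 0.05 or with DESeq2. Among 15 genes of DNA end joining, the other main route of break repair, 6 fell and 1 rose (median -0.27), and among 22 genes of nucleotide excision repair 1 fell and 4 rose (median 0.03). With the GC-content offset 4 genes of nucleotide excision repair fell (18.2%, against 4.55% without it) and 4 rose. No test between these lists and the members was made.

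**Figure D4:**
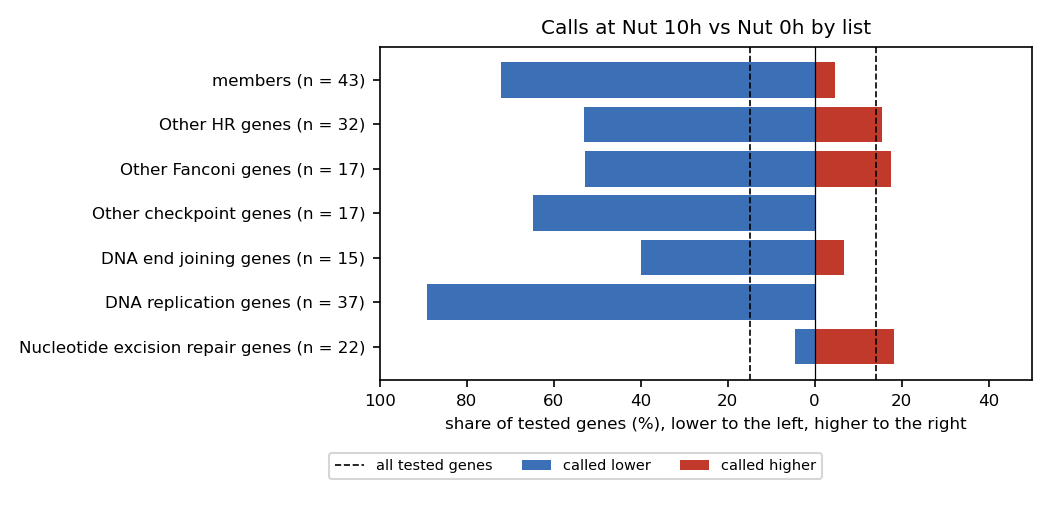
Share of tested genes called lower (blue, to the left) and higher (red, to the right) at Nut 10h against Nut 0h in the 43 members and in 6 other lists, in percent, with dashed lines at the shares of all tested genes (14.9% lower and 14.1% higher). The DNA replication genes and the members have the longest bars to the left (89.2% and 72.1%), and the nucleotide excision repair genes the shortest (4.55%).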

How the data were processed

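Total RNA of HCT116 cells was sequenced in 6 libraries, 2 biological replicates each of Nut 0h, Nut 1h and Nut 10h, and the groups were taken from the sample labels. Per the labels and the study's methods, the authors ran Trim Galore 0.6.6 on the reads, mapped them to GRCh37.p13 (STAR 2.7.0f) and assigned them to genes (featureCounts of Subread 2.0.0). The deposited values are raw counts for 57905 genes, without normalization. The strand setting and the treatment of multimapping reads are not given in the sources used here. The authors' table of comparisons holds fold changes and p-values of their DESeq2 1.36.0 run, and only its gene symbols were used.

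Library totals were 26068076 to 35473485, and every member passed the low-count filter. Low-count genes were removed with filterByExpr (16565 kept), libraries were scaled by TMM, and groups were compared in R 4.3.3 by the quasi-likelihood test of edgeR 4.0.16 (with limma 3.58.1), fitting condition alone over all 6 libraries. A gene was called at a Benjamini-Hochberg adjusted p of at most 0.05 over all tested genes. The test was tried on simulated data. Standard errors are the size of the log2 fold change over the square root of F. Levels per length used the canonical transcript of the GENCODE annotation lifted to GRCh37, which also gave GC content (97.4% of tested genes). The GC-content offset is a loess trend (span 0.4) of each library's deviation on GC content.

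The members and lists were chosen with earlier results of these data known, so lists are described by counts and medians. Values in every library are given for the best-known members, for those in the study's p53 target lists, for the 3 largest rises and 8 largest falls at Nut 10h, for the 3 largest of each at Nut 1h, and for the largest change of each role group. Genes of the wider lists are named when called with an absolute log2 fold change of at least 1 at Nut 10h, except for a withheld item that is not reported here. The alternatives were DESeq2's size factors, no low-count filter, DESeq2 1.42.0, a replicate block, the GC-content offset, their combination, only the 2 groups compared, a threshold of 0.01, and each library left out in turn. Promoter sequences are from RefSeq (GRCh38.p14).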

Additional observations from a re-analysis of the deposited data

Results flagged for a closer look

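For 39 of the 43 members the change from vehicle differed between the time points, by edgeR's quasi-likelihood test of Nut 10h against Nut 1h. The values given here are the log2 change at 10 h minus that at 1 h. They were negative for 35 members and positive for 4. Such differences were common, since 33.7% of all tested genes were called lower and 34.2% higher in the same comparison.

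In the BRCA1-BARD1 group the differences were -3.55 for BARD1, -3.10 for BRCA2, -2.51 for BRIP1, -2.26 for BRCA1, -1.24 for RBBP8 and -0.55 for PALB2. Among the strand exchange and annealing factors they were -2.81 for XRCC2, -1.99 for RAD51AP1, -1.95 for RAD54B, -1.51 for RAD54L, -0.76 for RAD51C, -0.52 for XRCC3 and -0.49 for RAD51D. XRCC3 did not pass without Nut 10h replicate 2 (-0.28). RAD51D did not pass with DESeq2 (-0.45, adjusted p = 0.0946), without Nut 1h replicate 1 (-0.39) or Nut 10h replicate 1 (-0.32). RAD51B (-0.34) passed only without Nut 10h replicate 2 (-0.50).

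In the Fanconi core complex the differences were -2.26 for FANCB, -1.54 for UBE2T, -1.36 for FANCM, -1.24 for FANCL, -0.80 for FANCA, -0.71 for FANCC and -0.58 for FANCG. FANCE (-0.26) passed in several alternatives, among them without either Nut 0h library (-0.26 in each case) and with the GC-content offset (-0.89). The FANCD2-FANCI pair differed by -1.41 for FANCD2 and -1.37 for FANCI, and the MRN genes by -1.53 for MRE11A, -1.36 for NBN and -0.50 for RAD50.

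The checkpoint genes differed by -2.04 for CHEK1, -1.52 for TOPBP1, -1.06 for ATR, -0.82 for ATM, -0.71 for CHEK2 and 0.44 for ATRIP. The dissolvasome genes differed by -2.19 for RMI1, -2.15 for BLM and -0.79 for RMI2, the nuclease genes by -1.27 for EME1, 0.71 for MUS81 and 0.50 for SLX4, and the polymerases by -2.30 for POLQ and 1.41 for POLH. With the GC-content offset ATRIP, MUS81, SLX4 and RAD50 changed sign (-0.23, -0.12, -0.08 and 0.07), of which ATRIP passed as lower and the others did not pass, and PALB2 (-0.08), RAD51D (-0.32) and ATM (-0.11) no longer passed, while RAD52 (0.26, against 0.15 without the offset) passed. Of the members that kept their call, several differed in size with the offset. The difference was larger for XRCC3 (-1.52) and FANCG (-1.18), among others. It was smaller for RAD51C (-0.22), ATR (-0.41), NBN (-0.56) and FANCM (-0.60), among others. The part of GC content in these differences was not tested.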

How the results depend on the processing

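At Nut 10h the members' decrease kept its direction under every alternative run. The number of members called lower was 31 and ranged from 28 to 31 with single libraries left out, and the median of -0.81 ranged from -0.81 to -0.72. The 2 called higher became 1 at an adjusted p of at most 0.01 and ranged from 1 to 3 with single libraries left out. With the GC-content offset the 28 members called higher at Nut 1h became 11 (11 with the replicate block as well), the 8 called lower became 4 (3), and the median became 0.05 (0.05). In Nut 10h against Nut 1h the 4 called higher became 2 (2), and the median of -1.24 became -0.89 (-0.88).

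With the GC-content offset 18 members changed sign at Nut 1h: PALB2 -0.02, RBBP8 -0.08, RAD51B -0.02, RAD51C -0.18, RAD51D -0.15, XRCC3 0.10, RAD51AP1 -0.28, RAD54L 0.11, RAD54B -0.23, FANCE 0.12, FANCG 0.17, FANCM -0.04, UBE2T -0.19, RAD50 -0.14, CHEK2 -0.04, TOPBP1 -0.04, BLM -0.00346 and POLH -0.10. The replicate block with the offset gave the same values except for RAD51D (-0.16), UBE2T (-0.18) and BLM (-0.0017). RAD51D was also -0.01 with DESeq2, and with single libraries left out it ranged from -0.07 (Nut 0h replicate 2) to 0.15 (Nut 0h replicate 1), with -0.05 for Nut 1h replicate 1. At Nut 10h, 4 members that had not passed the test changed sign with 1 library left out: PALB2 and RAD50 (both 0.04 without Nut 10h replicate 1), RAD51B (from -0.20 to 0.16) and ATR (from -0.29 to 0.09). In Nut 10h against Nut 1h the offset turned FANCF (0.21), RAD50 (0.07), ATRIP (-0.23), MUS81 (-0.12) and SLX4 (-0.08, and -0.09 with the replicate block), and FANCF ranged from -0.36 to 0.01 with single libraries left out. The cause of the GC trend was not tested.

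Whether libraries with the same replicate number were prepared together is not given by the labels. The differences between replicates 1 and 2 correlated at -0.149 (Nut 0h and Nut 1h), 0.221 (Nut 0h and Nut 10h) and -0.138 (Nut 1h and Nut 10h) across genes. Such correlations cannot decide it, because trends of single libraries also enter them. With the replicate block 28 members were called higher and 8 lower at Nut 1h, 3 higher and 31 lower at Nut 10h, and 4 higher and 36 lower at Nut 10h against Nut 1h. FANCF, RAD51B, FANCB and RAD54B had the fewest normalized counts of the members at Nut 0h.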

Other observations

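Of the 66 tested genes in the wider lists, 8 (12.1%) rose at Nut 10h, a share below the 14.1% of all tested genes. With the GC-content offset 11 (16.7%) did, and the share of all tested genes with the offset is not given. The 8 genes are named here after their values were seen. REV3L, the catalytic subunit of the translesion polymerase zeta, rose from 802 ± 140 (SD, n = 2) to 1345 ± 215 normalized counts (log2 fold change 0.75 ± 0.14 SE, edgeR adjusted p = 0.00101). The nuclease genes ERCC4 and FAN1, which cut at crosslinks, rose by 0.40 and 0.35 on the log2 scale, and EME2, the other partner of MUS81 beside EME1, by 0.41. Small rises were also called for ZSWIM7 (0.49), BRE (0.37), FAM175A (0.34) and RECQL5 (0.26).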
